A study of Mus musculus with 6 samples.

Results

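Basement membranes are thin sheets of matrix that underlie epithelia and endothelia and surround nerve, muscle and vessel cells. Laminin trimers of 1 alpha, 1 beta and 1 gamma chain polymerise at the cell surface, type IV collagen trimers form a crosslinked network beside them, and nidogens and the heparan sulfate proteoglycans perlecan and agrin link the networks. In the cornea such sheets lie under the epithelium and under the corneal endothelium, as Descemet's membrane, and the stroma between them is kept by keratocytes, its resident mesenchymal cells. The expression of 35 genes that encode basement membrane components, a crosslinking enzyme and a receptor was compared here between control and Ptch1-ablated keratocytes. Members were chosen by gene symbol from a list of known components, and all 35 were found among the 17606 genes of the expression table.

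Bulk RNA-seq was available for 3 control and 3 Ptch1-ablated libraries of keratocytes isolated by flow cytometry from mice labelled as 10 weeks old. Both groups received 3 doses of tamoxifen, labelled as a treatment for 1 month. The study describes isolation of keratocytes 1 month after tamoxifen. Whether 10 weeks is the age at treatment or at collection is not settled by the sources used here. The Ptch1-ablated mice were Prrx1-CreERT;Ptch1, that is, they carried a tamoxifen-dependent Cre recombinase under control of Prrx1, a gene of mesenchymal cells, together with floxed alleles of Ptch1, which encodes the inhibitory receptor of Hedgehog signaling. Prrx1-CreERT is a knock-in line and the floxed Ptch1 line had been crossed back to C57BL/6. The driver also recombines in corneal endothelial cells and other mesenchyme of the eye. The sources used here do not give the sort gate, the alleles that control mice carried, or whether a library pools several mice. The comparison asks how the transcripts of basement membrane components differ when Ptch1 is ablated in these cells.

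Library totals ranged from 20258439 to 24788063 counts, so that 3 counts corresponded to between 0.121 and 0.158 CPM, the counts per 1000000 counts of the scaled library. Counts of Ptch1 were 7.89, 5.47 and 16.2 CPM in controls and 185, 221 and 251 CPM in ablated libraries (log2 fold change 4.47 ± 0.35 SE, edgeR adjusted p = 6.83e-06). Gene totals join all exons, so they do not show loss of the floxed exons and check nothing about the deletion itself, and groups are named by their labels. The Hedgehog-induced genes Gli1 and Hhip separated the groups, with Gli1 at most 1.58 CPM in controls and at least 125 CPM in ablated libraries. Keratocyte markers summed to 102928 to 118712 TPM in controls and to 79925 to 95958 TPM in ablated libraries. TPM are transcripts per 1000000 transcripts, corrected for gene length. Of 7 tested markers 5 fell (Kera, Aldh3a1, Aldh1a1, Cd34 and Tkt), where 3.80% of all genes tested fell (edgeR adjusted p of at most 0.05). The others, Lum (log2 fold change -0.07, adjusted p = 0.812) and Dcn (-0.32, adjusted p = 0.177), did not pass.

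Of the 35 basement membrane genes, 33 had enough counts to be tested, and 11 had an edgeR adjusted p of at most 0.05 (Benjamini-Hochberg over 13888 genes). Higher in ablated keratocytes were 8 genes, Col4a1, Col18a1, Lama4, Lamb1, Lamc3, Nid2, Hspg2 and Hmcn1, and lower were 3 genes, Lama1, Fras1 and Egfl6. Among all genes tested 8.48% passed the same threshold, 4.68% as higher and 3.80% as lower, against 33.3% of the tested basement membrane genes. The members were chosen with earlier results of these data known. With a fold change of at least 2 in addition, 10 genes remained (7 higher and 3 lower), where 5.49% of all genes did (3.36% higher and 2.13% lower). Values of the groups did not overlap for 20 of the 33 genes, against 27.4% of all genes tested. The median log2 fold change was 0.47 over the 33 genes and 0.0046 over all genes, and the median absolute value was 0.86 against 0.36.

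**Figure D1:**
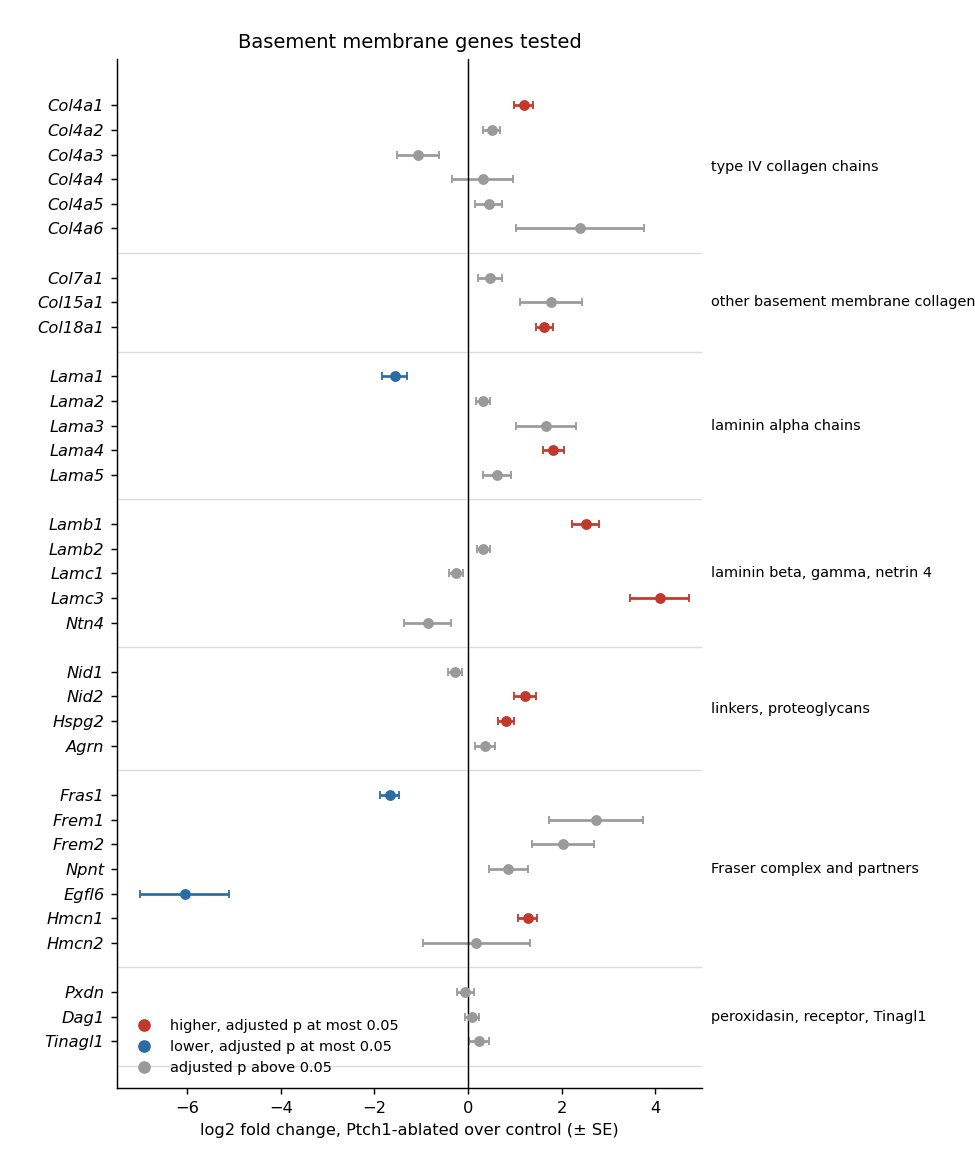
Log2 fold change (Ptch1-ablated over control, 3 libraries a group) of the 33 basement membrane genes tested, grouped by role, with bars of ± 1 SE from edgeR. The 8 genes in red were higher and the 3 in blue lower at an adjusted p of at most 0.05, from 4.09 for Lamc3 down to -6.05 for Egfl6.

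Summed over the 35 genes, basement membrane transcripts came to 930, 1069 and 1227 TPM in controls and to 1638, 1654 and 1370 TPM in ablated libraries (1075 ± 148 against 1554 ± 159, SD, n = 3). The ablated libraries all lay above the controls. These genes took 0.310% ± 0.0252 of all counts in controls and 0.440% ± 0.0333 in ablated libraries. Neither measure has the scaling between libraries that the tests use. In CPM, which have it, the sums were 2930, 3317 and 3629 in controls and 4361, 4298 and 3814 in ablated libraries. In controls the laminin beta2 chain Lamb2 had the highest level (312 ± 47.7 TPM), followed by the linker Nid1 (188 ± 38.0 TPM) and dystroglycan, Dag1 (87.8 ± 7.14 TPM). Levels of Lama2, Tinagl1, Col4a1 and Col4a2 came next, between 61.2 and 68.3 TPM, and did not separate from each other beyond their spread. In controls 14 members reached 10 TPM and in ablated libraries 19 did, while 9 and 5 members stayed under 1 TPM, again without that scaling.

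Promoter sequences are shown for the members past the adjusted p that were in the table used and had an upstream stretch without annotated transcript of the same gene. Hmcn1 is not shown because most of its window lies inside the span of the gene in RefSeq, and Col4a1 because its window lies in transcript of Col4a2. A promoter table from RefSeq (GRCm38.p6) held 27 of the 35 members with 34 promoters, and the 250 bases before each start site were searched on both strands. The GC box GGGCGG, a recognition motif of Sp factors, was found in 18 of the 34 promoters and in 32.7% of the 32851 promoters of the table. The TATA box TATAAA was found in 1 of them, that of Col17a1, and in 12.4% of all. The consensus GACCACCCA of the Gli factors was found in 0 of them and in 0.225% of all, which says only that these letters are not in these windows. Matches of the 3 motifs were counted separately, whether or not their ends shared letters. Capitals mark GC boxes, in either orientation, in the following stretches, written 5′ to 3′ on the strand of the gene. The stretches are chr10:77166549-77166780 (minus strand) before Col18a1, chr12:31265043-31265145 (plus) before Lamb1, chr4:137468553-137468750 (plus) before Hspg2 and chrX:166585721-166585966 (minus) before Egfl6, and none of the 4 holds an annotated exon of its gene.
Col18a1: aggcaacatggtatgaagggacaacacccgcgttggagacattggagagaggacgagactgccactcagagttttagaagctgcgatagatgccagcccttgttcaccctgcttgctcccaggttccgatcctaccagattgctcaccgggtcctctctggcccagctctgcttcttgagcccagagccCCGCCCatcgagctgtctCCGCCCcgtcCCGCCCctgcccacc
Lamb1: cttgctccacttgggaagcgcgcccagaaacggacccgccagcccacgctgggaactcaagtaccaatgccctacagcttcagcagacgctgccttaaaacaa
Hspg2: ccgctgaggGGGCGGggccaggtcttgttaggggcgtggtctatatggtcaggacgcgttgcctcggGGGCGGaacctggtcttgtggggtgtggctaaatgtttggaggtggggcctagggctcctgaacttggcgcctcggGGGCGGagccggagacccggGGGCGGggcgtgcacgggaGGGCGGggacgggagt
Egfl6: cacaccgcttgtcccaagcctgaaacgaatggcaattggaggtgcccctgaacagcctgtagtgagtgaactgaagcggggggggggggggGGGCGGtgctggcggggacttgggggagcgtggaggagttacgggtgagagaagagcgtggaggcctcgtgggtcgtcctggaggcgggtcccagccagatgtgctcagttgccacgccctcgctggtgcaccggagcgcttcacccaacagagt
The stretch of Hspg2 held 5 GC boxes, that of Col18a1 held 3 and that of Egfl6 held 1. The stretch of Lamb1 ends 147 bases before the start site and held 0, while the whole window of 250 bases before Lamb1 held 2.

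Type IV collagen is built from 6 chains encoded as 3 gene pairs that lie head to head. In the annotation (GRCm38) Col4a1 and Col4a2 on chromosome 8 overlap by 22 bases at their start sites, Col4a4 and Col4a3 on chromosome 1 are 71 bases apart, and Col4a6 and Col4a5 on chromosome X are 1308 bases apart. Col4a1 (Entrez 12826), a chain of the network found in nearly all basement membranes, had 135, 212 and 242 CPM in controls and 468, 488 and 386 CPM in ablated libraries. All ablated libraries lay above all controls, and Col4a1 rose by a log2 fold change of 1.19 ± 0.20 (SE, adjusted p = 0.00242). Its usual partner chain Col4a2 had 167, 198 and 207 CPM in controls and 346, 215 and 252 CPM in ablated libraries, which did not overlap but missed the threshold (0.51 ± 0.18, adjusted p = 0.122). The ratio of Col4a1 to Col4a2, in TPM, was 0.786, 1.04 and 1.14 in controls and 1.32, 2.21 and 1.5 in ablated libraries. These ratios did not overlap, with p = 0.1 in an exact permutation test (two-sided), the smallest p that 3 against 3 libraries allow. Of the 6 type IV collagen chains only Col4a1 passed the threshold. Together they summed to 134 ± 28.7 TPM in controls and 279 ± 35.5 TPM in ablated libraries (SD, n = 3), with no overlap between groups. These sums lack the scaling between libraries that the tests use.

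The other chains of the family were low. Col4a3 and Col4a4, whose products form the network of Descemet's membrane and of the kidney glomerulus together with the alpha5 chain, had log2 fold changes of -1.07 ± 0.45 (adjusted p = 0.192) and 0.31 ± 0.65 (adjusted p = 0.855). Values of Col4a3 were 6.52, 13.8 and 12.7 CPM in controls and 3.79, 4.5 and 7.41 CPM in ablated libraries, so that control replicate 1 lay below the highest ablated library. Col4a5 had 15.4 to 33.6 CPM in controls and 28.3 to 35.2 CPM in ablated libraries (0.44 ± 0.29, adjusted p = 0.457). Col4a6, its neighbour, had 1, 53 and 0 counts in controls and 80, 183 and 90 counts in ablated libraries. The groups did not overlap, but the log2 fold change of 2.39 ± 1.37 had an adjusted p of 0.369, and nearly all control counts came from control replicate 2. Without control replicate 2 the log2 fold change was 7.47 and the adjusted p was 0.0086, against controls of 1 and 0 counts.

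Among the remaining collagens, Col18a1 (Entrez 12822), which encodes the heparan sulfate proteoglycan that yields endostatin, had 26.3, 33.2 and 33.0 CPM in controls and 92.5, 102 and 92.5 CPM in ablated libraries. The spread within each group was small beside the gap, and Col18a1 rose by 1.63 ± 0.18 on the log2 scale (adjusted p = 0.000108). Its close relative Col15a1 had 0.947 to 2.89 CPM in controls and 4.33 to 7.67 CPM in ablated libraries, with no overlap (1.77 ± 0.66, adjusted p = 0.139). Col7a1, the collagen of anchoring fibrils under the epithelium, had 45.0 to 89.7 CPM in controls and 76.3 to 121 CPM in ablated libraries (0.47 ± 0.25, adjusted p = 0.339). Col17a1, a transmembrane collagen of epithelial hemidesmosomes, had 0, 3 and 1 counts in controls and 1, 0 and 25 counts in ablated libraries and was not tested.

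Laminin alpha chains carry the main cell-binding domains of the trimer. Lama4 (Entrez 16775), an alpha chain of vessels and mesenchymal tissue, had 18.4, 26.2 and 29.1 CPM in controls and 90.1, 72.3 and 98.2 CPM in ablated libraries. Every ablated library lay far above the highest control, and Lama4 rose by 1.82 ± 0.22 on the log2 scale (adjusted p = 0.000240). Lama1 (Entrez 16772), the alpha chain of early embryonic and some eye basement membranes, moved the other way, with 33.8, 25.5 and 32.1 CPM in controls and 12.4, 8.37 and 9.98 CPM in ablated libraries. Groups were well apart and Lama1 fell by 1.57 on the log2 scale (SE 0.27, adjusted p = 0.00309), although limma on TPM values gave adjusted p = 0.0716 with a pseudocount of 1 and 0.0917 with one of 0.1. Lama2, the alpha chain of muscle and nerve sheaths and the main one here, had 286, 313 and 364 CPM in controls and 351, 457 and 399 CPM in ablated libraries. These values overlapped, with a log2 fold change of 0.33 ± 0.15 (adjusted p = 0.231). Lama5, the broad epithelial and endothelial alpha chain, and Lama3, that of epithelial anchoring laminin, were low, with no overlap between groups but adjusted p of 0.288 (0.62 ± 0.31) and 0.157 (1.66 ± 0.64).

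Lamb1 (Entrez 16777), the beta1 chain, had 9.41, 8.15 and 14.4 CPM in controls and 51.4, 76.0 and 55.4 CPM in ablated libraries. The lowest ablated library lay far above the highest control, and Lamb1 rose by 2.51 ± 0.28 on the log2 scale (adjusted p = 0.000109). Lamb2, the beta2 chain and the most abundant member, had 722, 863 and 946 CPM in controls and 1201, 1053 and 923 CPM in ablated libraries, with overlap (0.33 ± 0.14, adjusted p = 0.198). Lamb3, the beta3 chain of epithelial anchoring laminin, was not tested, with 36 counts in control replicate 2, 9 in ablated replicate 1 and 0 in the other libraries.

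The gamma3 chain Lamc3 (Entrez 23928) had the largest rise among the members, from 8, 27 and 98 counts in controls to 704, 949 and 854 counts in ablated libraries. On the CPM scale this was 2.03 ± 2.03 against 34.9 ± 5.17 (SD, n = 3), with controls that differed among themselves and no overlap with the ablated libraries. Its log2 fold change was 4.09 ± 0.63 (adjusted p = 0.00133), and 5.30 without control replicate 3, the control with the most counts. Lamc1, the gamma1 chain of most laminins, had 205, 173 and 206 CPM in controls and 165, 184 and 139 CPM in ablated libraries (-0.26 ± 0.15, adjusted p = 0.390). Ntn4, a laminin-related netrin that can disturb laminin networks, had 5.78 to 8.68 CPM in controls and 3.03 to 6.12 CPM in ablated libraries, with overlap (-0.86 ± 0.49, adjusted p = 0.369).

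**Figure D2:**
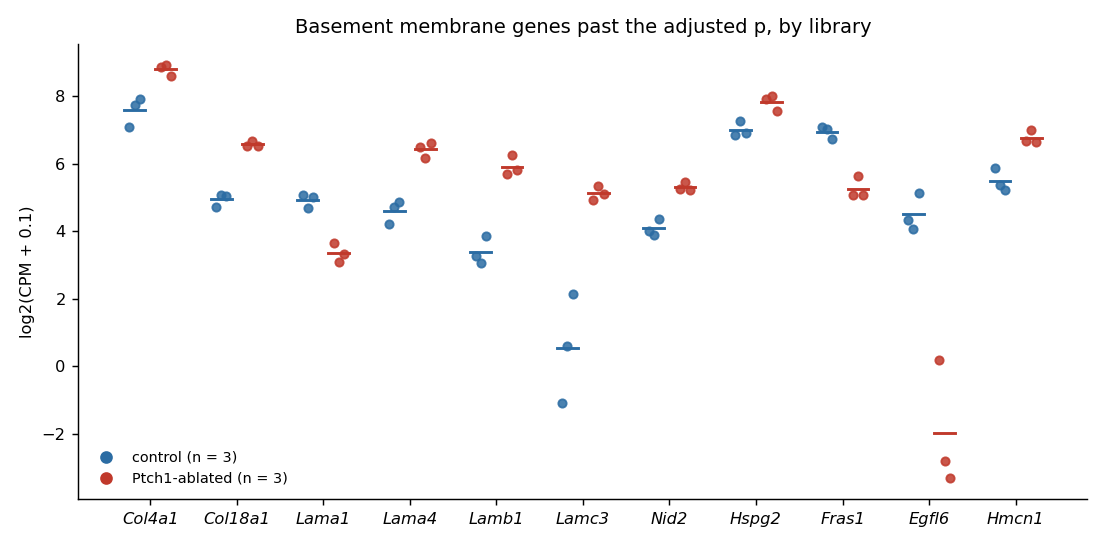
Level of the 11 basement membrane genes past the adjusted p in each library, as log2(CPM + 0.1), with a dot per library and a line at the mean of the plotted log values. Ablated libraries sit above controls for 8 genes and below them for Lama1, Fras1 and Egfl6, and the widest spread is that of Lamc3 in controls and Egfl6 in ablated libraries.

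The shares of chains within a family, taken from TPM values inside each library, do not depend on the scaling between libraries. Lamc3 made up 0.147%, 0.729% and 1.84% of the TPM of Lamc1 and Lamc3 together in controls and 14.0%, 16.4% and 18.2% in ablated libraries, the remainder being Lamc1. Lama4 went from 9.66% ± 1.40 to 24.0% ± 4.35 of alpha chain TPM, Lama1 from 7.62% ± 1.43 to 1.89% ± 0.627, and Lama2 from 78.5% ± 1.43 to 69.0% ± 5.29 (SD, n = 3). Lama2 thus remained the main alpha chain in all 6 libraries. Lamb1 went from 1.21% ± 0.282 to 5.36% ± 1.29 of beta chain TPM beside Lamb2. Groups did not overlap for any of these 5 shares, each with p = 0.1 in the exact permutation test, which can go no lower. Lama5 was at a share of 3.52% in controls and 3.77% in ablated libraries (exact permutation p = 0.8). Summed alpha chains came to 87.0 ± 12.5 TPM in controls and 145 ± 13.8 TPM in ablated libraries. Lamc1 and Lamc3 together came to 53.1 ± 5.90 and 60.9 ± 11.0 TPM and overlapped. Unlike the shares, the sums do depend on the scaling between libraries, which TPM lack.

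**Figure D3:**
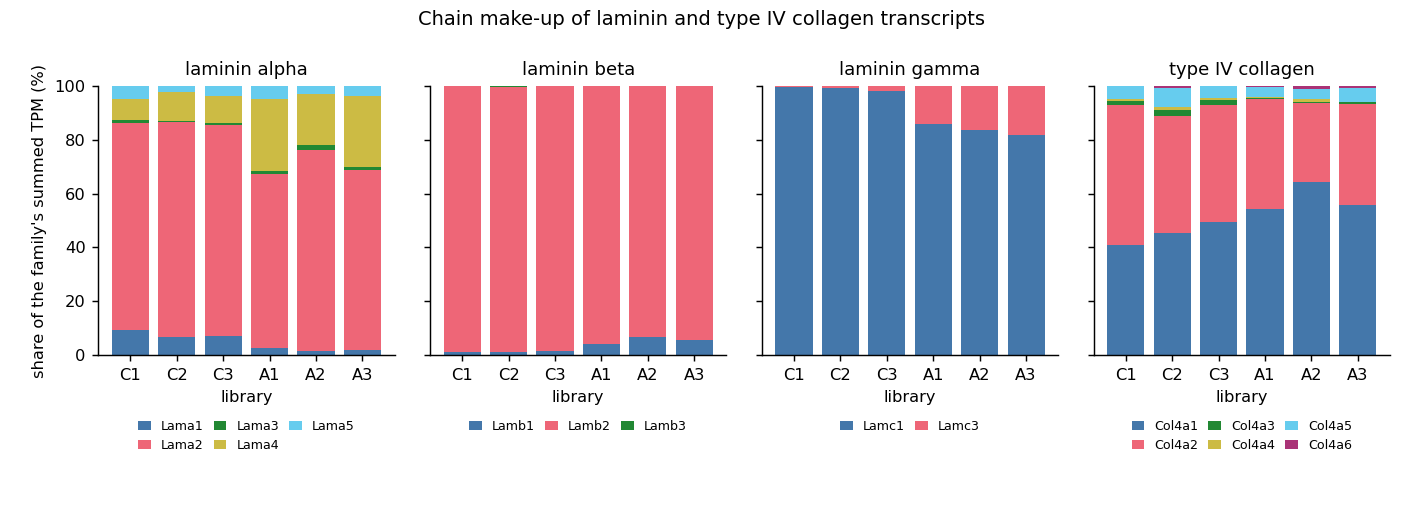
Share (%) of each chain in the summed TPM of its family, 1 bar per library (C1 to C3 control, A1 to A3 Ptch1-ablated), for laminin alpha and beta chains, the gamma chains Lamc1 and Lamc3, and type IV collagen. Lamc3 takes 14.0% to 18.2% of the gamma TPM in ablated libraries and at most 1.84% in controls, and the Lama4 segment is larger in each ablated library than in any control.

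Nidogens bind laminin and type IV collagen. Nid2 (Entrez 18074) had 15.8, 14.6 and 20.6 CPM in controls and 38.0, 44.1 and 37.0 CPM in ablated libraries. The groups did not overlap and Nid2 rose by 1.22 ± 0.24 on the log2 scale (adjusted p = 0.00640). Nid2 shares 437 exonic bases with Rtraf on the opposite strand, and whether counting used strand is not given in the sources used here, so its value is uncertain to that extent. Nid1, the more abundant nidogen, had 451, 542 and 649 CPM in controls and 452, 423 and 476 CPM in ablated libraries (-0.28 ± 0.14, adjusted p = 0.311). The share of Nid2 in nidogen TPM went from 3.75% ± 0.471 to 9.96% ± 1.39, while summed nidogen TPM was 195 ± 39.3 and 199 ± 2.33. The sums lack the scaling between libraries that CPM have, in which mean Nid1 was 547 in controls and 451 in ablated libraries.

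Hspg2 (Entrez 15530), which encodes perlecan, had 116, 154 and 119 CPM in controls and 241, 256 and 188 CPM in ablated libraries. No library overlapped, and Hspg2 rose by 0.82 ± 0.17 on the log2 scale (adjusted p = 0.0103), which is under a fold change of 2. Agrn, which encodes agrin, had 29.5 to 35.9 CPM in controls and 36.6 to 47.0 CPM in ablated libraries, without overlap (0.36 ± 0.21, adjusted p = 0.376).

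Fras1 (Entrez 231470), Frem1 and Frem2 encode the Fraser complex, a set of large proteins anchored under epithelia that hold epithelium to mesenchyme in the embryo. Fras1 had 135, 129 and 106 CPM in controls and 33.6, 49.6 and 33.1 CPM in ablated libraries. All ablated libraries were below all controls, and Fras1 fell by 1.67 on the log2 scale (SE 0.20, adjusted p = 0.000232). Its partners were low and lay in the opposite direction, with Frem1 at 0 to 2.06 CPM in controls and 4.52 to 14.7 CPM in ablated libraries (2.73 ± 1.00, adjusted p = 0.135). For Frem2 the values were 1.18 to 1.31 CPM and 4.72 to 5.96 CPM (2.02 ± 0.66, adjusted p = 0.0894). Groups did not overlap for either partner, and neither passed the threshold.

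Npnt and Egfl6 encode related ligands of integrin alpha8 beta1 that sit in basement membranes. Egfl6 (Entrez 54156) had the largest fall among the members, from 432, 317 and 793 counts in controls to 24, 1 and 0 counts in ablated libraries. In CPM these were 19.8, 16.7 and 34.7 against 1.02, 0.0425 and 0, and the log2 fold change was -6.05 ± 0.94 (adjusted p = 0.00151). Ablated replicate 1 held 96% of the ablated counts, and the other ablated libraries were at or under 3 counts. Without ablated replicate 1 Egfl6 was at least 186-fold lower than the control mean, with 3 counts per library taken as the floor. By TPM it ranked 10 of the 35 members in controls and 33 in ablated libraries. Corneal epithelial markers were mixed. The summed TPM of 10 markers was 59.0 to 93.2 in controls and 7.55 to 11.0 in ablated libraries. Krt15, Krt14 and Krt5 had the highest control means of the list (47.7, 12.8 and 8.60 TPM), so the sum mostly follows them. Of 8 tested, Krt5, Krt14 and Krt15 fell and Krt12 rose from 0 counts in each control to 21, 49 and 52 counts. Epcam, Perp and Sfn lay lower and Cdh1 higher (log2 fold change 2.01 ± 1.68), without passing. Among all genes tested 3.80% fell and 4.68% rose. Counts of Krt5, Krt14 and Krt15 in ablated libraries came almost wholly from replicate 1, as for Egfl6 (17, 0 and 0 for Krt5), whereas those of Krt12, Epcam, Perp and Sfn came from all 3. The part of epithelial cells in the Egfl6 result was not tested. Npnt, which encodes nephronectin, had 4.41 to 14.6 CPM in controls and 14.8 to 21.2 CPM in ablated libraries, without overlap (0.86 ± 0.41, adjusted p = 0.265).

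Hemicentins are very large extracellular proteins of cell junctions and basement membrane linkages. Hmcn1 (Entrez 545370) had 58.3, 40.9 and 37.1 CPM in controls and 101, 128 and 100.4 CPM in ablated libraries. The groups did not overlap, and Hmcn1 rose by 1.27 ± 0.21 on the log2 scale (adjusted p = 0.00217). Hmcn2 had 0.138 to 3.63 CPM in controls and 0.426 to 4.16 CPM in ablated libraries, with no difference detectable at this depth (0.18 ± 1.15, adjusted p = 0.963).

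Pxdn, peroxidasin, forms the sulfilimine crosslinks of type IV collagen, and its level was 75.0, 92.8 and 100.1 CPM in controls and 97.9, 82.3 and 77.5 CPM in ablated libraries (-0.06 ± 0.18, adjusted p = 0.913). Dag1, the laminin receptor dystroglycan, had 213 to 249 CPM in controls and 211 to 269 CPM in ablated libraries (0.09 ± 0.14, adjusted p = 0.805). Tinagl1, a secreted matrix protein that binds laminins and integrins, had 52.9 to 58.3 CPM in controls and 48.3 to 82.0 CPM in ablated libraries (0.24 ± 0.21, adjusted p = 0.590). The groups overlapped for all 3 of these genes.

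Cells of vessels make much of their own basement membrane, and some of their markers rose as well. Among all genes tested, the background for each list here, 4.68% rose and 3.80% fell. Of 8 vascular endothelial markers 4 rose (Pecam1, Cdh5, Tie1 and Emcn) and none fell. The summed TPM of the 8 was 339 to 458 in controls and 577 to 651 in ablated libraries. Kdr, the one with the highest TPM, lay the other way, at 464 to 639 CPM in controls and 402 to 431 CPM in ablated libraries (log2 fold change -0.40 ± 0.14, adjusted p = 0.112). Of 8 mural cell markers 4 rose (Rgs5, Notch3, Kcnj8 and Mcam) and none fell, with summed TPM of 181 to 189 and 398 to 410. Every marker of both lists had counts in each library. The 7 Schwann cell markers used here summed to 136 to 160.5 TPM in controls and 173 to 195 TPM in ablated libraries. Of 6 tested with edgeR 0 passed, with 1 at an unadjusted p under 0.05, and 0 passed with DESeq2 and 1 in each limma fit, which leaves out the marker not reported here. Leukocyte markers summed to 1662 to 1832 and 1782 to 2111 TPM (2 of 8 rose), and corneal endothelial markers to 389 to 433 and 333 to 525 TPM (2 of 6 rose, Car3 and Atp1b2). The part of these cells in the rise of Col4a1, Col18a1, Lama4, Lamb1, Lamc3, Nid2, Hspg2 and Hmcn1 was not tested. In bulk libraries a change in the number of cells of a type and a change in RNA per cell cannot be told apart.

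**Figure D4:**
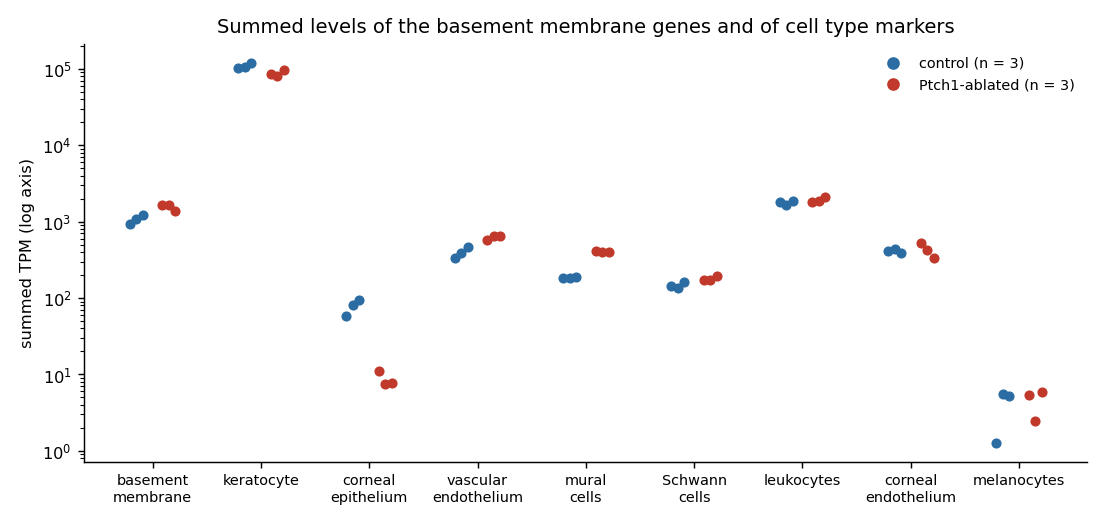
Summed TPM (log axis) of the 35 basement membrane genes and of each cell type marker list, with a dot per library and 3 libraries a group. Ablated libraries sit above controls for basement membrane genes and for vascular endothelial, mural and Schwann cell markers, and below them for keratocyte and corneal epithelial markers. TPM were not scaled further between libraries, and 0 of 6 tested Schwann cell markers passed with edgeR.

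Receptors through which cells hold basement membranes were followed in a list of 20 genes, all tested. Of these 4 rose and 1 fell, where 4.68% of all genes tested rose and 3.80% fell. The median log2 fold change was 0.24, against 0.0046 over all genes. Itga8, the alpha chain of the receptor for nephronectin and Egfl6, had 76, 37 and 36 counts in controls and 234, 431 and 306 counts in ablated libraries (2.53 ± 0.47, adjusted p = 0.00487). The groups did not overlap, so that this receptor chain was higher while Egfl6 was lower. Bcam, a receptor for laminin alpha5, rose by 1.08 ± 0.20 (adjusted p = 0.00529) and the phosphatase Ptprf, which binds laminin and nidogen complexes, by 1.61 ± 0.43 (adjusted p = 0.0383) on the log2 scale. Itgb4, the beta chain of the hemidesmosome integrin, rose by 0.87 ± 0.20 (adjusted p = 0.0190), while its partner Itga6 was at 0.44 ± 0.20 (adjusted p = 0.233). Sdc1, a heparan sulfate proteoglycan of the cell surface, fell by 0.97 on the log2 scale (SE 0.15, adjusted p = 0.00133). With 1 library left out the count of the list was 3 to 5, and Ptprf and Itgb4 were the calls that were lost.

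The assembly, crosslinking and turnover of basement membranes were followed in a list of 27 genes, all tested. Of these 4 rose and 7 fell, against 4.68% and 3.80% of all genes tested. The median log2 fold change was -0.42, and 0.0046 over all genes. Fbln1, fibulin 1, a calcium-binding matrix protein of basement membranes and elastic fibers, had 451, 334 and 304 counts in controls and 6192, 6367 and 5345 counts in ablated libraries (3.86 ± 0.21, adjusted p = 3.76e-07). The protease Adamts1 (1.40 ± 0.16, adjusted p = 0.000144) and Reck, a membrane-bound inhibitor of metalloproteases (1.33 ± 0.22, adjusted p = 0.00220), also rose. Fn1, fibronectin, fell by 1.23 (SE 0.14, adjusted p = 0.000115), and Sparc, a collagen-binding protein that helps type IV collagen to be secreted and assembled, fell by 1.2 (SE 0.087, adjusted p = 4.21e-06) on the log2 scale. Sparc went from 7760 ± 159 CPM to 3366 ± 154 CPM, while Col4a1 rose.

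Dystroglycan needs a glycan added by a set of enzymes to bind laminin, and is held inside the cell by the dystrophin complex. Of 28 such genes 27 were in the table and 25 were tested. The edgeR adjusted p was passed by 0 of them and by 8.48% of all genes tested. Their log2 fold changes ran from -1.2 to 1.99, with a median of -0.07. At an unadjusted p under 0.05 there were 3 of these genes, and 2854 of all 13888 genes tested. DESeq2 called 1 and limma on log2(TPM + 1) called 2. Dag1 itself is described above.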

How the data were processed

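RNA-seq was analysed from 6 libraries of mouse corneal keratocytes. Per the labels and the study's methods, the authors aligned reads with Bowtie2 (v2.2.5), mm9 per the submitters' processing notes, and quantified genes with RSEM (v1.2.12). The annotation and strandedness are not given in the sources used here, and the labels and the study's methods name different library preparations. The authors deposited estimated counts (RSEM expected counts, of which 18.59% were not whole), TPM (corrected for length, per 1000000 transcripts) and FPKM. FPKM and group averages were not used.

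Expected counts were rounded. Genes were filtered by filterByExpr (13888 of 17606 kept), scaled by TMM and compared with edgeR's quasi-likelihood test (two-sided, Benjamini-Hochberg over all genes tested). Genes with an adjusted p up to 0.05 passed, and those that also changed by at least 2-fold were counted separately, the thresholds in the study's methods. Rose and fell are used of genes that passed. CPM are counts per 1000000 of the scaled library. TPM, which were not scaled further between libraries, served for levels between genes, for sums and for shares. Group values are mean ± SD (n = 3) and fold changes carry the SE. A count of 3 per library was taken as the floor for a count of 0, which covers counting error only. The 3 libraries of a group are labelled as replicates and described as biological in the study. Library pairs within a group differed by at least 34.0 chi-square units per degree of freedom, and the median biological coefficient of variation was 27.4%.

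Members, related lists and tests were chosen with earlier results of these data known. All members are named, and from the related lists up to 5 genes of largest change whose group with the higher mean averaged 100 counts or more, with Itga6, Itgb4 and Itga8 as partners. A related gene and a cell type marker were left out of their lists and are not reported here. Shares of chains and the sums over members were chosen after the data were seen. Promoter sequences are from RefSeq (GRCm38.p6), which is not the build of the alignment, and 8 members were not matched. The scripts were tested on simulated data. The tools were edgeR 4.0.16, DESeq2 1.42.0 and limma 3.58.1 in R 4.3.3, with matplotlib 3.10.9 in Python 3.11.15. Alternatives were DESeq2, RLE, upper quartile and library-total scaling, no filter, a minimum mean count of 50, a replicate block, omission of single libraries, and limma on log2(TPM + 1) and log2(TPM + 0.1).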

Additional observations from a re-analysis of the deposited data

How the results depend on the processing

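Of the 11 basement membrane genes past the adjusted p, 10 passed under all 15 alternatives and none changed sign. The exception was Lama1, which missed it in both limma fits. Of the 22 others, 6 passed under at least 1 alternative (Col4a2, Col4a6, Lama2, Lamb2, Frem1 and Frem2). The number past it was 11 to 14, and the number also at 2-fold was 9 to 12. The 14 came with DESeq2 and with library totals, where 1736 and 1410 of all genes passed, against 1178. The 12 came with DESeq2, where 961 of all genes were also at 2-fold, against 763. The 9 came without control replicate 1, where 756 of all genes were. Signs reversed for Col4a4 without ablated replicate 2 (-0.67, and -0.67 to 0.68 over the 6 omissions of a library), for Hmcn2 without control replicate 1 or ablated replicate 2 (-0.76 to 1.10 over the omissions), and for Pxdn without control replicate 3 or ablated replicate 3 (-0.17 to 0.034 over the omissions), with library totals only (0.11) and in the limma fits (0.17 and 0.18). The cause was not tested.

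Leaving out each library gave 778 (without control replicate 2) to 1015 genes past the adjusted p, against 1178. Receptor genes past it numbered 3 to 5 against 5, and were 3 without control replicate 2 or any of the ablated replicates. Ptprf was lost in these 4 fits, and Itgb4 in these and without control replicate 3. Dystroglycan genes past it were 1 with DESeq2 and 2 with limma on log2(TPM + 1), against 0. Scaling by library totals only raised the median log2 fold change by 0.168 and changed the split of all genes past the adjusted p from 650 higher and 528 lower to 1024 and 386, and of those also at 2-fold from 467 and 296 to 633 and 234. For the basement membrane genes it was 11 higher and 3 lower.

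The replicate numbers are shared by both groups. Deviations from the group means of same-numbered libraries correlated at -0.0223, -0.0626 and 0.0388, and those of different-numbered libraries at -0.0462 to 0.0786. No pairing by number was seen, but such correlations cannot tell whether same-numbered libraries were handled together. With the replicate block, 942 genes passed and 663 were also at 2-fold, and among the basement membrane genes 11 and 10. Ptprf missed the threshold with the block.

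Depth limits Col17a1, Lamb3, Hmcn2 and Col4a6, whose values rest on few counts, and Egfl6 in ablated libraries.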
